A study of Drosophila melanogaster with 9 samples.

Results

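Neuronal and synaptic marker genes were followed in RNA-Seq libraries of larval dorsal organs, as a measure of how much neuronal RNA each library and each genotype held. The 10 genes *elav*, *brp*, *Syt1*, *nSyb*, *Syx1A*, *cpx*, *unc-13*, *CadN*, *Appl* and *futsch* were taken by name from the 17421 genes of the gene tables. The dorsal organ is the olfactory organ of the *Drosophila* larva and houses the cell bodies of the olfactory receptor neurons (ORNs) beside support cells. The comparison was between 5 *Orco* mutant samples and 4 wild-type samples, each of 20 dorsal organs from larvae of the third instar and each made into 1 library. The paper left out 1 more *Orco* mutant sample for its low read count. *Orco* encodes the co-receptor that most odorant receptors need. All larvae were of the w1118 background and carried *Orco-Gal4* and *UAS-mCD8-GFP*, homozygous, so that ORNs that use the *Orco* driver were labelled with GFP in both genotypes. The *Orco* mutant larvae were in addition homozygous for the orco1 allele. The organs were picked by hand by their GFP label after collagenase treatment, so each sample could hold ORNs, the other neurons of the organ, glia, support cells and attached tissue. The labels describe each sample as an isolation of its own, and organs of several larvae were pooled in each.

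A neuron releases transmitter when a vesicle fuses with the membrane of its terminal. The vesicle protein Synaptobrevin and the membrane protein Syntaxin join into a SNARE complex, Synaptotagmin senses the calcium that enters, and Complexin holds the complex until then. The fusion takes place at the active zone, which Bruchpilot and Unc-13 help to build. The axons of ORNs end in the antennal lobe of the brain, outside the dissected organ, so the terminals at which most of these proteins act were not part of the samples. *elav*, which encodes an RNA-binding protein of postmitotic neurons, is the usual pan-neuronal marker of the fly.

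The totals were 4090474 to 9157645 estimated counts in the *Orco* mutant libraries and 4432839 to 7005182 in the wild-type libraries, and rRNA genes took 33.3% to 53.8% of a library. Between 6810 and 10978 genes had a count in an *Orco* mutant library and between 8484 and 9544 in a wild-type library. The 3 libraries with the fewest detected genes were *Orco* mutant 3 with 6810, *Orco* mutant 5 with 8482 and wild-type 2 with 8484. These 3 libraries recur below. Mitochondrial genes took 15.4% of the counts of *Orco* mutant 5 and 0.603% to 7.13% of the counts of the other libraries. The genotype labels were borne out by *Orco* itself, which had 0 to 16 counts in each *Orco* mutant library and 1025 to 1819 in each wild-type library. Levels are given in CPM, counts set relative to a fixed library size, with the library sizes scaled by TMM. The genotypes were compared with edgeR's quasi-likelihood test over the 8160 genes with enough counts, and passing means a p under 0.05 after Benjamini-Hochberg adjustment over those genes. The spread between samples of 1 genotype was about as large as the mean of a gene, with a biological coefficient of variation of 0.996 shared over genes.

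All 10 genes had counts in all 9 libraries, and all 10 were tested. None passed the test between the genotypes. Over all genes 3 of 8160 passed (0.0368%), all of them lower in *Orco* mutants, *Orco* among them. At an unadjusted p under 0.05, 1 of the 10 genes was higher in *Orco* mutants, against 405 of 8160 genes (4.96%) in either direction, 180 (2.21%) in that direction and 225 (2.76%) in the other. Of the 10 log2 fold changes, 8 were positive, against 49.9% of all genes tested, and their median was 0.39, against -0.0014 over all genes. Under DESeq2 and limma-voom, none of the 10 genes passed either. DESeq2 called 61 of the 8079 genes to which it gave an adjusted p (0.755%). In bulk organs, fewer neurons and less RNA per neuron cannot be told apart, since a level in CPM is a share of the RNA of everything that was picked.

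**Figure D1:**
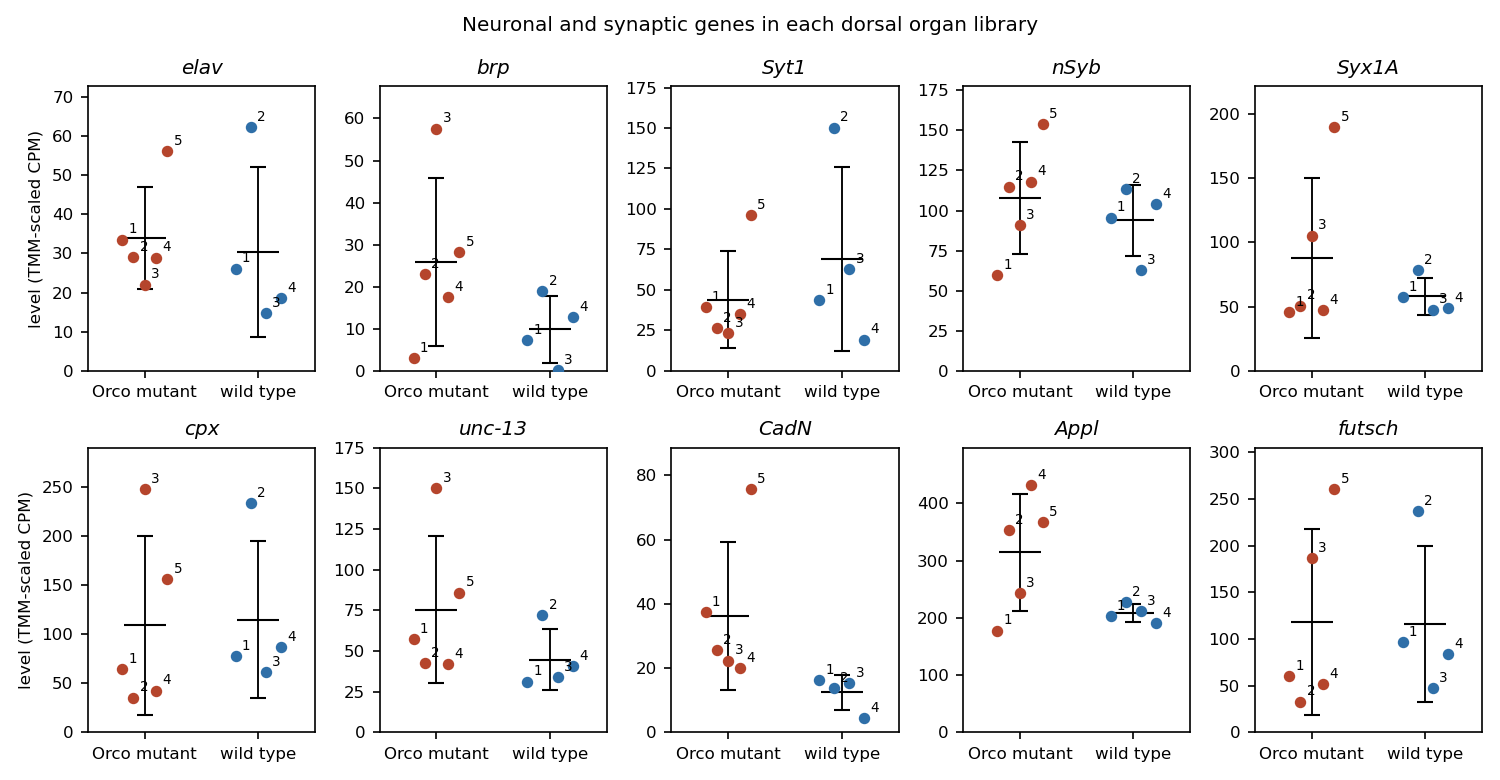
Level of each of the 10 genes in TMM-scaled CPM (vertical axes, each from 0) in the 5 *Orco* mutant and 4 wild-type libraries; points are single libraries, and the line with its bar is the mean with 1 SD. The genotypes overlap in every panel but that of *CadN*, where the lowest *Orco* mutant library (20.1) lies above the highest wild-type library (16.3).

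*elav* lies on chromosome X from 509235 to 523226 on the minus strand (Release 6 genome). Its level was 33.5, 29.0, 22.0, 28.9 and 56.0 CPM in *Orco* mutants 1 to 5, against 26.1, 62.2, 14.8 and 18.6 CPM in wild-type 1 to 4. The genotypes overlapped fully, since wild-type samples were both the highest and the lowest of all. The means were 33.9 ± 13.02 CPM in *Orco* mutants (SD, n = 5) and 30.4 ± 21.7 CPM in wild type (SD, n = 4). On the log2 scale the fold change was 0.15, with a 95% interval from -1.07 to 1.38 (adjusted p = 0.997 from edgeR). A difference of about 2-fold in either direction in this pan-neuronal marker therefore lay inside the interval and was not detectable with these samples. The exons of *elav* overlap those of *arg* on the other strand over 673 bases, and without strand the reads of such a stretch cannot be told apart. In the annotation lncRNA:enrr, which was not among the genes of the files, overlaps *elav* on the same strand over 2994 bases (27.9% of the *elav* exon length).

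Among the active zone genes, *brp* had the largest ratio of the highest to the lowest library of the 10. *brp* encodes Bruchpilot, the scaffold of the T-shaped dense projection of the fly active zone, and lies on chromosome 2R from 9503765 to 9541565 on the plus strand. It had 3.05, 23.0, 57.6, 17.5 and 28.3 CPM in *Orco* mutants, against 7.37, 19.0, 0.212 and 12.9 CPM in wild type. The lowest value, that of wild-type 3, was 1 count, and the highest, that of *Orco* mutant 3, was 209 counts. 3 of the 5 *Orco* mutant libraries lay above all wild-type libraries, while *Orco* mutant 1 lay below all but wild-type 3. The log2 fold change was 1.39 (95% interval -0.88 to 3.66, adjusted p = 0.997 from edgeR), the widest interval of the 10. Without *Orco* mutant 3 it was 0.86.

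*unc-13*, whose product readies docked vesicles for fusion, lies on chromosome 4 from 867824 to 912331 on the minus strand. It had 57.1, 42.6, 150.2, 41.9 and 86.0 CPM in *Orco* mutants, against 31.2, 72.2, 34.1 and 40.9 CPM in wild type. Every *Orco* mutant library lay above 3 of the 4 wild-type libraries, and only wild-type 2 stood among the mutants. The fold change on the log2 scale was 0.76 (adjusted p = 0.997 from edgeR), with a 95% interval from -0.29 to 1.805. The exons of *unc-13* overlap genes on the other strand, asRNA:CR43425 over 3528 bases, the pseudogene CR43361 over 1463 bases and asRNA:CR44029 over 705 bases, with the same limit on the reads.

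The SNARE gene *nSyb* was the steadiest of the vesicle genes. It encodes neuronal Synaptobrevin, the SNARE protein of the synaptic vesicle, and lies on chromosome 3L from 1630348 to 1637752 on the minus strand. Its level was 59.8, 114.9, 90.9, 118.1 and 153.9 CPM in *Orco* mutants, against 95.5, 113.3, 62.8 and 103.9 CPM in wild type. The wild-type values all lay within the range of the mutants. With means of 107.5 ± 34.9 CPM in *Orco* mutants (SD, n = 5) and 93.9 ± 22.0 CPM in wild type (SD, n = 4), the log2 fold change was 0.20 and its 95% interval ran from -0.56 to 0.95 (adjusted p = 0.997 from edgeR). *nSyb* was the only one of the 10 whose interval left out a 2-fold difference in both directions, as that of 441 of the 8160 genes did.

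*Syx1A* encodes Syntaxin 1A, the SNARE partner in the plasma membrane, and lies on chromosome 3R from 24101600 to 24105763 on the minus strand. It had 45.8, 50.7, 105.3, 47.4 and 189.6 CPM in *Orco* mutants, against 57.1, 78.4, 47.6 and 49.0 CPM in wild type. *Orco* mutants 3 and 5 were high, and the other 3 mutants lay close to the lowest wild-type libraries. This gave a log2 fold change of 0.60 (95% interval -0.45 to 1.64, adjusted p = 0.997 from edgeR). Its sign rested on the libraries with few detected genes, since it was -0.093 without *Orco* mutants 3 and 5 and wild-type 2. *Syx1A* shares 447 exon bases with *eIF4EHP* on the same strand, so a part of its counts is uncertain.

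*Syt1*, the gene of the calcium sensor Synaptotagmin 1, was one of the 2 genes with a negative fold change. It lies on chromosome 2L from 2772327 to 2799979 on the minus strand. Its level was 39.4, 26.3, 23.1, 34.9 and 96.1 CPM in *Orco* mutants, against 43.7, 150.2, 63.0 and 19.4 CPM in wild type. In each genotype 1 library stood far above the others, *Orco* mutant 5 and wild-type 2. Its log2 fold change was -0.65 (95% interval -1.97 to 0.66, adjusted p = 0.997 from edgeR), and without wild-type 2 it was 0.06.

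*cpx* was the other. It encodes Complexin, which binds the assembled SNARE complex and restrains release until calcium enters, and lies on chromosome 3R from 4280221 to 4304604 on the plus strand. It had 64.7, 35.4, 248.0, 42.5 and 156.6 CPM in *Orco* mutants, against 77.9, 233.7, 61.3 and 86.9 CPM in wild type. The values fell into a high set of *Orco* mutants 3 and 5 and wild-type 2 and a low set of the other 6 libraries, none above 86.9 CPM. The genotypes differed by -0.07 on the log2 scale (95% interval -1.38 to 1.24, adjusted p = 0.997 from edgeR), -0.62 without *Orco* mutant 3 and 0.53 without wild-type 2.

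*CadN* was the gene with the clearest order of the libraries. It encodes N-cadherin, a homophilic adhesion protein that guides axons to their targets, also in the fly olfactory system, and lies on chromosome 2L from 17647053 to 17778340 on the minus strand. Its level was 37.4, 25.6, 22.3, 20.1 and 75.6 CPM in *Orco* mutants, against 16.3, 13.8, 15.4 and 4.55 CPM in wild type. All 5 mutant libraries lay above all 4 wild-type libraries, the only such order among the 10 genes, against 97 of 8160 genes in that direction (1.19%), 219 (2.68%) in the other direction and 316 (3.87%) in either. The means were 36.2 ± 23.0 CPM in *Orco* mutants (SD, n = 5) and 12.5 ± 5.42 CPM in wild type (SD, n = 4). This was a log2 fold change of 1.53 (standard error 0.66, 95% interval 0.10 to 2.96), with an unadjusted p of 0.0376 and an adjusted p of 0.990 from edgeR, so *CadN* did not pass over all genes. It was 1.07 without *Orco* mutant 5, with an unadjusted p of 0.147 in that fit of edgeR. *CadN* had 81 to 312 counts in each *Orco* mutant library and 35 to 78 in each wild-type library.

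*Appl* was the most abundant of the 10 and the one with the tightest wild-type values. It encodes the fly homolog of the amyloid precursor protein, a transmembrane protein of neurons, and lies on chromosome X from 530501 to 579044 on the plus strand. It had 177.7, 352.9, 242.8, 431.4 and 367.7 CPM in *Orco* mutants, against 203.3, 228.0, 212.0 and 191.0 CPM in wild type. 4 of the 5 mutant libraries lay above all wild-type libraries, and *Orco* mutant 1 lay below all of them. The coefficient of variation was 32.5% in *Orco* mutants and 7.47% in wild type. The means were 314.5 ± 102.3 CPM in *Orco* mutants (SD, n = 5) and 208.6 ± 15.6 CPM in wild type (SD, n = 4). Its log2 fold change was 0.59 (standard error 0.30, 95% interval -0.06 to 1.24), with an unadjusted p of 0.0705 and an adjusted p of 0.997 from edgeR.

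*futsch*, the gene of a microtubule-associated protein of axons and terminals that is the fly counterpart of MAP1B, lies on chromosome X from 1409069 to 1453686 on the plus strand. Its level was 60.1, 33.1, 186.8, 51.3 and 260.4 CPM in *Orco* mutants, against 96.4, 236.9, 47.6 and 83.8 CPM in wild type. As for *cpx*, *Orco* mutants 3 and 5 and wild-type 2 were high and the other 6 libraries low. On the log2 scale the genotypes differed by 0.02 (95% interval -1.34 to 1.39, adjusted p = 0.999 from edgeR), with means of 118.4 ± 100.1 CPM in *Orco* mutants (SD, n = 5) and 116.2 ± 83.1 CPM in wild type (SD, n = 4). Its sign was the least stable of the 10 and turned in 9 of 18 alternative settings. *futsch* shares 1186 exon bases with the gustatory receptor gene *Gr2a* on the same strand.

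**Figure D2:**
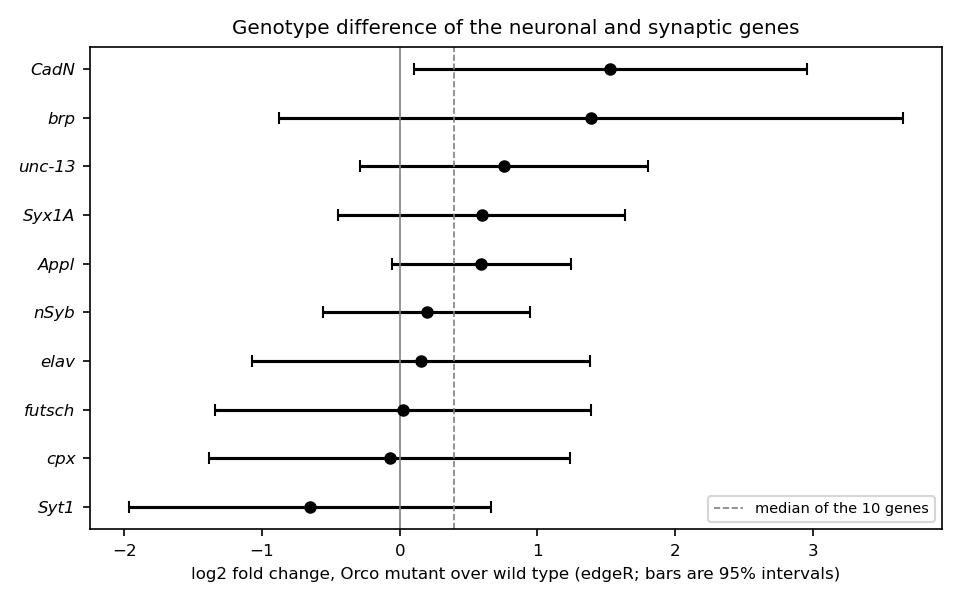
Log2 fold change of each of the 10 genes, *Orco* mutant over wild type, from edgeR (horizontal axis), with bars for the 95% interval and a dashed line at their median of 0.39. The interval of *CadN* (0.10 to 2.96) alone lies above 0, and that of *brp* (-0.88 to 3.66) is the widest.

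Levels of different genes were compared per length. For this, the estimated counts of each transcript were divided by the length of that transcript and summed per gene. The mean levels over the 9 libraries were 46.7 ± 16.5 CPM per kb for *Appl* and 40.9 ± 10.3 for *nSyb* (SD, n = 9). *cpx* followed with 29.9 ± 21.3 and *Syx1A* with 24.9 ± 16.1 CPM per kb. *Syt1* had 11.2 ± 8.46 and *elav* 11.1 ± 5.53 CPM per kb. The lowest were *unc-13* with 5.89 ± 3.85, *futsch* with 5.34 ± 3.94, *brp* with 2.36 ± 2.39 and *CadN* with 2.01 ± 1.59 CPM per kb. Several neighbours in this order did not keep it within libraries. *Appl* lay above *nSyb* in 6 of 9 libraries, *cpx* above *Syx1A* in 4, *Syt1* above *elav* in 4, *unc-13* above *futsch* in 6 and *brp* above *CadN* in 5. The steps at *Syx1A* over *Syt1*, *elav* over *unc-13* and *futsch* over *brp* each held in 8 of 9 libraries.

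Summed over the 10 genes, the level was 578.6, 733.5, 1149, 834.1 and 1470 CPM in *Orco* mutants, against 655.1, 1208, 558.9 and 610.9 CPM in wild type. The genotypes overlapped, with *Orco* mutant 5 the highest, wild-type 2 next and wild-type 3 the lowest. The means were 953 ± 357 CPM in *Orco* mutants (SD, n = 5) and 758 ± 302 CPM in wild type (SD, n = 4), and the log2 ratio of the means was 0.33. It ran from 0.12 without *Orco* mutant 5 to 0.65 without wild-type 2. As a share of all counts, the 10 genes took 0.0609% to 0.121% of an *Orco* mutant library and 0.0540% to 0.129% of a wild-type library. Outside rRNA genes these shares were 0.107% to 0.205% in *Orco* mutants and 0.0893% to 0.210% in wild type. The range among libraries of 1 genotype was thus wider than the difference between the genotype means, and the neuronal share of the RNA as read from these genes did not separate the genotypes.

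**Figure D3:**
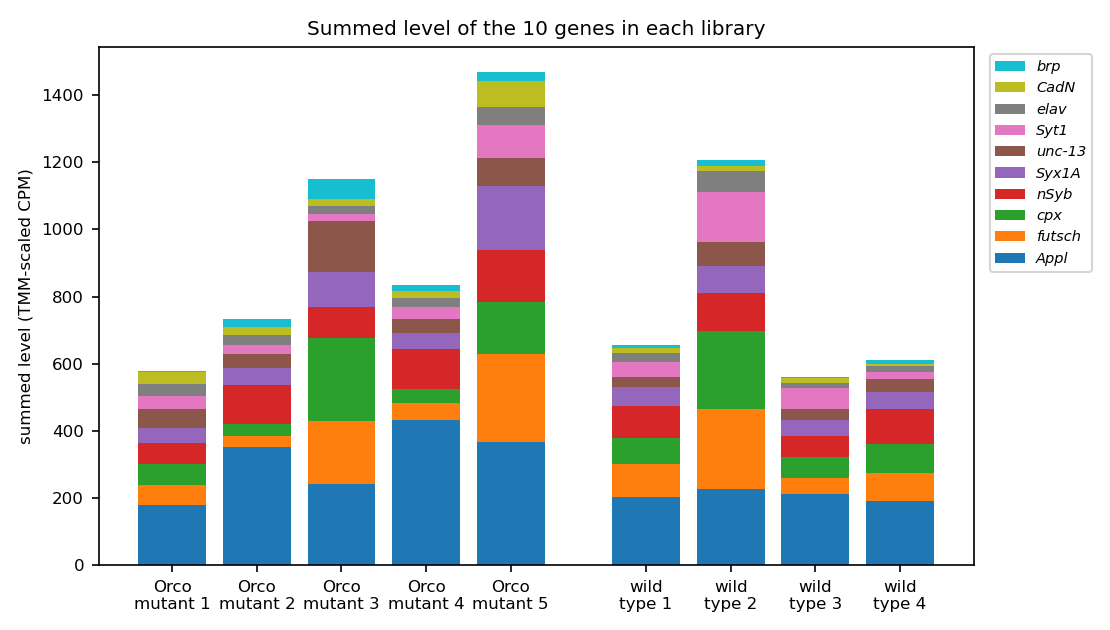
Summed level of the 10 genes in TMM-scaled CPM (vertical axis) in the 5 *Orco* mutant and 4 wild-type libraries, with 1 colour for each gene. *Orco* mutant 5 (1470), wild-type 2 (1208) and *Orco* mutant 3 (1149) are the tallest, and *Appl* makes up about 50% of *Orco* mutants 2 (48.1%) and 4 (51.7%).

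The libraries with high sums did not hold the same mixture of the 10 genes. *Orco* mutant 5 was among the 3 highest libraries for 10 of the 10 genes, wild-type 2 for 6 and *Orco* mutant 3 for 5. Wild-type 3 was among the 3 lowest for 8 genes, and wild-type 1 and wild-type 4 were among the 3 highest for 0. *Appl* made up 48.1% and 51.7% of the summed counts in *Orco* mutants 2 and 4, against 21.1% in *Orco* mutant 3 and 18.9% in wild-type 2. The ratio of *Appl* to *cpx* was 2.75, 9.96, 0.979, 10.1 and 2.35 in *Orco* mutants, against 2.61, 0.976, 3.46 and 2.20 in wild type. It was near 1 in *Orco* mutant 3 and wild-type 2 and near 10 in *Orco* mutants 2 and 4, which had the most detected genes.

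*cpx*, *futsch*, *unc-13* and *Syx1A* all had *Orco* mutant 3, *Orco* mutant 5 and wild-type 2 as their 3 highest libraries, the 3 with the fewest detected genes. Of all genes tested, 264 of 8160 (3.24%) had these as their 3 highest, against 4 of the 10 (40.0%), a count noticed in these data and given without a test. Lists of other neuronal genes, described below, had this pattern less often. It held for 1 of 16 tested vesicle release genes, 1 of 11 active zone genes and 2 of 15 identity and axon genes. It held for 0 of 11 endocytosis, 0 of 4 cholinergic, 0 of 6 other transmitter, 0 of 4 neuropeptide and 0 of 17 ORN marker genes. In *cpx* the lowest of the 3 libraries had 156.6 CPM and the highest of the other 6 had 86.9 CPM, and in *futsch* these values were 186.8 and 96.4 CPM. Muscle markers and a list of neuroblast and brain genes were also highest in these 3 libraries. The summed level of 13 muscle genes was 1528 CPM in *Orco* mutant 3, 1625 in *Orco* mutant 5 and 2137 in wild-type 2, against 117 to 681 CPM in the other 6 libraries. Of the 12 muscle genes tested, 8 had the same 3 highest libraries. The summed level of 9 neuroblast and brain genes was 182 CPM in *Orco* mutant 3, 212 in *Orco* mutant 5 and 156 in wild-type 2, against 56.8 to 103 CPM in the other libraries. That sum came mostly from *Imp* and *pros*, which are also used outside neuroblasts, while the neuroblast genes *ase* and *wor* had 0 counts in every library. None of the tested glial, hemocyte, fat body, epidermal, tracheal or support cell markers had these 3 libraries as its 3 highest. Wild-type 2 had the lowest sums of all 9 libraries for epidermal and cuticle genes (1009 CPM), tracheal genes (88.8 CPM) and support cell genes (204 CPM). The other 2 of these 3 libraries did not share this. *Orco* mutant 5 had the highest sums for epidermal and cuticle genes (8785 CPM) and tracheal genes (636 CPM), though also 204 CPM for support cell genes. *Orco* mutant 3 had the highest support cell sum (579 CPM). The part of muscle and of other tissue in the levels of these 4 genes was not tested.

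The markers of other cell types did not separate the genotypes by summed level. Glial genes summed to 1474 to 2598 CPM in *Orco* mutants and 1231 to 1691 CPM in wild type, led by *Gs2*, a glutamine synthetase gene. The pan-glial transcription factor gene *repo* had 34.2 to 51.0 CPM in *Orco* mutants and 5.92 to 60.3 CPM in wild type. Muscle genes summed to 117 to 1625 CPM in *Orco* mutants and 301 to 2137 CPM in wild type. Epidermal and cuticle genes summed to 1106 to 8785 CPM in *Orco* mutants, the highest in *Orco* mutant 5, and to 1009 to 2455 CPM in wild type. Hemocyte genes summed to 60.8 to 248 CPM in *Orco* mutants and 68.3 to 164 CPM in wild type, and fat body genes to 11.7 to 208 CPM in *Orco* mutants and 14.7 to 207 CPM in wild type. Genes of trachea summed to 227 to 636 CPM in *Orco* mutants and 88.8 to 531 CPM in wild type, and those of sense organ support cells to 204 to 579 CPM in *Orco* mutants and 204 to 319 CPM in wild type. In none of these lists did a gene pass the test with edgeR or have an unadjusted p under 0.05.

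**Figure D4:**
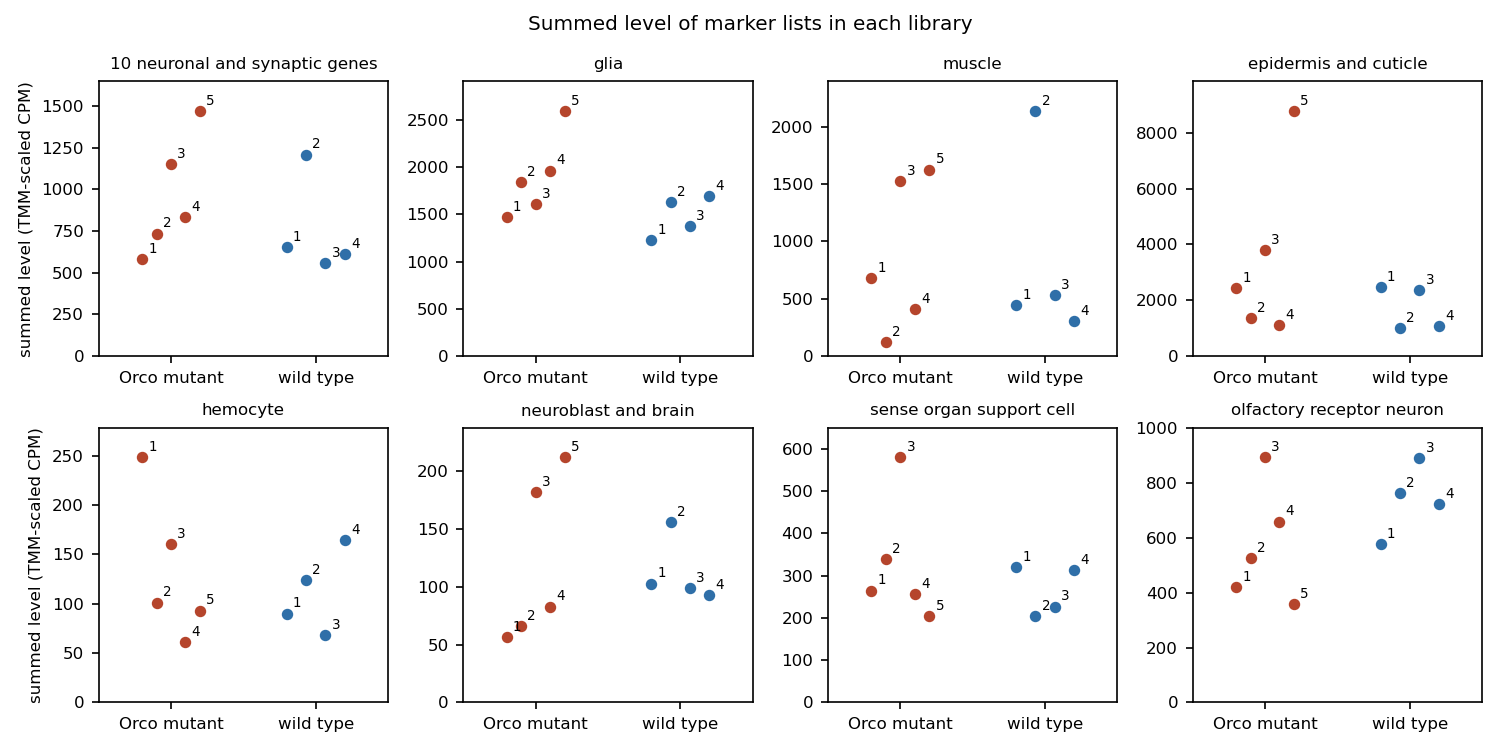
Summed level in TMM-scaled CPM (vertical axes, each from 0) of marker lists in the 5 *Orco* mutant and 4 wild-type libraries, 1 point for each library. The genotypes overlap in every panel. The olfactory receptor neuron panel also counts *Ir25a*, *Ir21a*, *Ir93a* and *Snmp1*. Its 17 odorant receptor genes alone did not overlap, with 25.6 to 77.1 in *Orco* mutants and 140 to 230 in wild type. In the muscle panel *Orco* mutants 3 and 5 (1528 and 1625) and wild-type 2 (2137) lie above the others (117 to 681).

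A list of 22 ORN marker genes was read beside the pan-neuronal genes. It held *Orco*, 17 odorant receptor genes and *Snmp1*, and also the ionotropic receptor genes *Ir25a*, *Ir21a* and *Ir93a*. Those belong to another receptor class, so the list was not of ORN genes alone. Summed over all 22, the level was 358 to 894 CPM in *Orco* mutants and 576 to 891 CPM in wild type. Of the 22 genes 17 were tested, and 1 was lower in *Orco* mutants past the threshold, *Orco* itself. The median log2 fold change of the 17 was -2.06 and 6 were positive. At an unadjusted p under 0.05, 7 were lower, against 2.76% of all genes, and 1 was higher, against 2.21%. The lower ones beside *Orco* were the odorant receptor genes *Or35a*, *Or59a*, *Or13a*, *Or83a*, *Or30a* and *Or45a*, with log2 fold changes from -7.93 for *Or35a* to -2.93 for *Or45a*, and the higher one was the ionotropic receptor gene *Ir21a*, at 1.16 (adjusted p = 0.654 from edgeR). Summed over the 17 odorant receptor genes of the list, *Orco* not counted, the level was 28.3, 50.4, 25.6, 52.3 and 77.1 CPM in *Orco* mutants, against 140, 230, 223 and 153 CPM in wild type. Every *Orco* mutant library lay below every wild-type library in this sum, while the genotypes overlapped in the sum of the 10 neuronal genes. Set against the sum of the 10 neuronal genes in the same library, *Orco* stood at 0 to 0.00179 in *Orco* mutants and at 0.257 to 0.688 in wild type. Within wild type this ratio varied by more than 2-fold, lowest in wild-type 2, whose neuronal sum was the highest of its genotype. The ionotropic co-receptor gene *Ir25a*, which marks neurons of another receptor class, had 58.2, 69.4, 213.9, 88.0 and 63.7 CPM in *Orco* mutants, against 33.0, 70.2, 20.5 and 85.4 CPM in wild type, with overlap of the genotypes.

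Other genes of the synapse and the neuron were read from 7 lists of 81 genes, of which 67 were tested and 56 had counts in all 9 libraries. None passed the test, and 1 had an unadjusted p under 0.05 (percentages of all genes as above). Of the 67, 43 had a positive log2 fold change, with a median of 0.13. That gene was *Cadps* of the vesicle release list, which encodes an activator of dense-core vesicle release. It had 47.8, 52.7, 38.6, 43.3 and 64.9 CPM in *Orco* mutants, against 17.0, 10.1, 47.0 and 10.7 CPM in wild type. Wild-type 3 stood inside the mutant range and the other 3 wild-type libraries well below it. Its log2 fold change was 1.22 (95% interval 0.0021 to 2.45), with an unadjusted p of 0.0497 and an adjusted p of 0.992 from edgeR.

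In the vesicle release list, 16 of 18 genes were tested and 9 had positive fold changes, with a median of 0.19. *Syn*, the gene of the vesicle phosphoprotein Synapsin, averaged 28.6 ± 9.73 CPM in *Orco* mutants (SD, n = 5) and 49.9 ± 31.5 CPM in wild type (SD, n = 4), with a log2 fold change of -0.80. *Sytbeta*, a Synaptotagmin gene, had 0 to 30.1 CPM in *Orco* mutants and 0.177 to 3.51 CPM in wild type. *Snap25*, a SNARE gene whose product joins those of *nSyb* and *Syx1A*, had 0 to 6.89 CPM in *Orco* mutants and 3.81 to 12.3 CPM in wild type, and was named after its values were seen. The 11 genes of the active zone and of calcium channels were all tested, and 7 were positive with a median of 0.05. *Rbp*, the gene of the RIM-binding protein of the active zone, averaged 53.6 ± 48.5 CPM in *Orco* mutants (SD, n = 5) and 20.8 ± 7.53 CPM in wild type (SD, n = 4), and its high mean came with 137.8 CPM in *Orco* mutant 3. The log2 fold change of *Ca-beta*, a calcium channel subunit gene, was 1.34. That of *nwk*, which acts in membrane traffic at synapses, was 2.13, on 94 counts over the *Orco* mutants and 16 over the wild type.

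Of the genes of vesicle endocytosis, all 11 were tested and 7 were positive, with a median of 0.06, and the summed level was 370 to 498 CPM in *Orco* mutants and 345 to 440 CPM in wild type. *shi*, which encodes dynamin, had a log2 fold change of 0.17 (95% interval -0.57 to 0.90), *EndoA*, which encodes Endophilin A, one of -0.45, and *Eps-15* one of 0.98. *stnA* and *stnB* had the same values in every library and cannot be told apart. Of the 15 genes of neuronal identity, adhesion and axons, 12 were positive with a median of 0.30. *Nrg*, the gene of the adhesion protein Neuroglian, averaged 283 ± 112 CPM in *Orco* mutants (SD, n = 5) and 183 ± 29.4 CPM in wild type (SD, n = 4). *fne*, a relative of *elav*, had 16.4 to 134.8 CPM in *Orco* mutants and 23.4 to 33.3 CPM in wild type, and *sli*, a secreted guidance cue, had 11.6 to 47.4 CPM in *Orco* mutants and 0.709 to 16.6 CPM in wild type.

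The fly's ORNs are cholinergic, and cholinergic genes were present in every library. All 4 were tested and 3 had positive fold changes, with a median of 0.30. *VAChT*, the vesicular acetylcholine transporter gene, had 11.3 to 58.5 CPM in *Orco* mutants and 8.67 to 35.9 CPM in wild type. *Ace*, which encodes acetylcholinesterase, had 63.7 to 243 CPM in *Orco* mutants and 13.8 to 83.7 CPM in wild type, and the log2 fold change of *CG7708*, the choline transporter gene, was -0.51. Markers of other transmitters were low or absent apart from some of the dopamine pathway, among them the enzyme genes *ple* and *Ddc*. Whether the counts of these enzyme genes came from neurons was not tested. *Gad1*, which makes GABA, had 0 counts in every library, *VGAT* had 1 count over the *Orco* mutants and 7 over the wild type, and *VGlut*, the vesicular glutamate transporter gene, had 79 counts over the *Orco* mutants and 87 over the wild type. *ple*, which encodes tyrosine hydroxylase and is also used in the epidermis, averaged 331 ± 107 CPM in *Orco* mutants (SD, n = 5) and 153 ± 166 CPM in wild type (SD, n = 4). *Ddc*, the next enzyme, had 1.24 to 292 CPM in *Orco* mutants and 44.7 to 139 CPM in wild type. *DAT*, the dopamine transporter gene, averaged 2.90 ± 2.82 CPM in *Orco* mutants (SD, n = 5) and 16.7 ± 10.9 CPM in wild type (SD, n = 4), and its log2 fold change of -2.52 had an adjusted p of 0.992 from edgeR. Of the 10 neuropeptide genes 4 were tested, among them *Phm*, an enzyme of peptide amidation, with 108 to 155 CPM in *Orco* mutants and 102 to 184 CPM in wild type, *svr* with a log2 fold change of -0.44 and *sNPF* with one of 1.10.

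The 10 genes came from 81 transcripts in the transcript tables, of which 9 had no count and 36 were tested. None of the 36 passed, and 1 had an unadjusted p under 0.05. Over all transcripts 2 of 13161 passed (0.0152%) and 402 (3.05%) had an unadjusted p under 0.05. Transcripts of 1 gene share most of their exons, so their estimated counts are less certain than those of the gene. The transcript with the unadjusted p under 0.05 was cpx-RC, which took 31.1%, 25.7%, 5.38%, 19.6% and 19.3% of the *cpx* counts in *Orco* mutants, against 22.4%, 36.3%, 54.4% and 54.5% in wild type. The log2 fold change of its level was -1.47 (standard error 0.64), with an unadjusted p of 0.0406 and an adjusted p of 0.9998 from edgeR. That test was of the level of the transcript, and shares within a gene were not tested. By share, only wild-type 1 of the wild-type libraries stood in the range of the mutants. Another *cpx* transcript, cpx-RH, held 512.1 of the counts of *Orco* mutant 3, where it took 56.9% of the gene. It took 4.92% to 20.0% in the other *Orco* mutants and 3.03% to 8.66% in wild type. The high *cpx* level of that library thus lay mostly in 1 transcript, while in wild-type 2 cpx-RC held 477.8 counts.

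**Figure D5:**
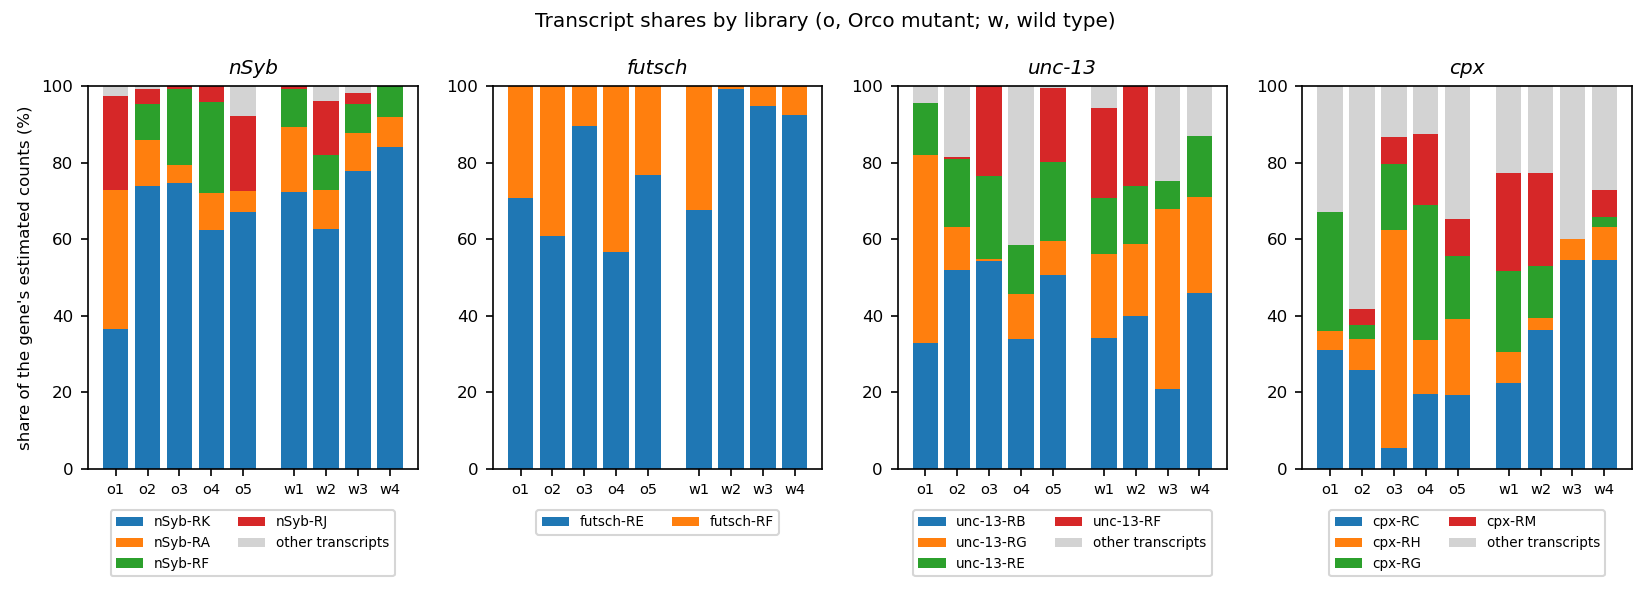
Share of the estimated counts of *nSyb*, *futsch*, *unc-13* and *cpx* that each transcript took (vertical axes, percent), in the 5 *Orco* mutant (o) and 4 wild-type (w) libraries. nSyb-RK and futsch-RE lead in 9 of 9 libraries, and in *cpx* the share of cpx-RC was 5.38% to 31.1% in *Orco* mutants and 22.4% to 54.5% in wild type.

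Some genes kept 1 leading transcript and others did not. nSyb-RK was the largest *nSyb* transcript in 9 of 9 libraries, with 36.5% to 74.7% of the gene in *Orco* mutants and 62.6% to 84.0% in wild type. futsch-RE was the largest *futsch* transcript in 9 of 9 libraries, with 56.7% to 89.5% in *Orco* mutants and 67.7% to 99.1% in wild type. By contrast, *Syt1*, *cpx* and *CadN* each had 5 different leading transcripts across the 9 libraries and *brp* had 4. elav-RA took 0 to 77.6% of the *elav* counts in *Orco* mutants and 0 to 24.3% in wild type. The log2 fold change of its level was 1.64, with an adjusted p of 0.9998 from edgeR. At 70 to 354 counts of *elav* in a library, such shares rest on few counts, and the libraries carry no molecular identifiers.

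Across the 9 libraries the 10 genes were only loosely alike. Of the 45 pairs, 42 had a positive Pearson correlation of log2 CPM, with a median of 0.43 and a range from -0.23 for *cpx* and *Appl* to 0.94 for *cpx* and *futsch*. These correlations share library preparation, depth and the same pooled organs, and are given as a description. Outside the 10, the genes whose log2 CPM was most like their mean standardized profile were *Ank2* (Pearson's r 0.97), which encodes the axonal scaffold Ankyrin 2, *CG43737* (0.96), *pds5* (0.95), *REPTOR* (0.95), *ss* (0.95), *Nckx30C* (0.94), *Caper* (0.94), *Mmp2* (0.94), *CG31221* (0.93) and *hdc* (0.92), each over the 9 libraries. *Ank2* averaged 278 CPM in *Orco* mutants and 191 CPM in wild type, and its log2 fold change of 0.54 had an adjusted p of 0.997 from edgeR.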

How the data were processed

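RNA was made into Smart-seq2 libraries, which neither keep strand nor mark single molecules. The authors demultiplexed the reads with CASAVA 1.8.2, trimmed with cutadapt 1.9.1, estimated transcript abundance with kallisto 0.43.0 against FlyBase and summed it per gene with tximport. The deposited values are estimated counts per gene and per transcript, not normalized.

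Here these values were rounded to whole counts, filtered with filterByExpr (minimum count 10, minimum total 15), scaled with TMM and tested with edgeR 4.0.16 in R 4.3.3, with genotype as the only term, Benjamini-Hochberg adjustment over all genes or transcripts and 95% intervals from the unshrunken coefficient. Sums over the 10 genes were described without a test. Positions came from the Ensembl annotation of Release 6, which held 17224 of the 17421 gene identifiers. Each pair of libraries within a genotype was compared by the squared difference of each gene over its counting variance. The median of this ratio over genes was 16.6 in the closest pair, so no library duplicated another of its genotype. Pairs across the genotypes were not compared. Alternatives were RLE factors, DESeq2 1.42.0, limma-voom (limma 3.58.1), other filters, removal of rRNA genes, quality weights, a replicate block and leaving out libraries. The 10 genes, the gene lists and the tests were chosen with earlier results of these data known. By rule the named genes were the 10, *Orco*, the 3 tested genes of each neuronal list with the smallest p, the 2 most abundant of each marker list, and the 10 genes most alike in profile. *repo*, *ase*, *wor*, *Snap25*, *stnA*, *stnB*, *Gad1*, *VGAT*, *VGlut*, *Ir25a* and the odorant receptor genes were named after their values were seen.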

Additional observations from a re-analysis of the deposited data

Results flagged for a closer look

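In 22 groups of 4 or 5 libraries (the 10 genes and their sum in each genotype), Dixon's test for a value far from the others marked 3, where chance marks about 1 in 20. That rate holds for independent groups, and these were not, since the sum contains the 10 genes and the genes share the same libraries. The rate also assumes a normal spread, which was not checked for these levels, and all 3 marked values were high ones. So 3 marked groups cannot be read as an excess. *Syt1* stood at 96.1 CPM in *Orco* mutant 5, and the next *Orco* mutant library had 39.4 CPM. *cpx* stood at 233.7 CPM in wild-type 2, and the next wild-type library had 86.9 CPM. The sum of the 10 genes stood at 1208 CPM in wild-type 2, and the next wild-type library had 655.1 CPM. Wild-type 2 and *Orco* mutant 5 also had the highest muscle marker sums, 1625 CPM in *Orco* mutant 5 and 2137 CPM in wild-type 2, whose part in these values was not tested.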

How the results depend on the processing

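None of the 10 genes and none of the 67 genes of the other neuronal lists passed under any of 18 alternatives, nor did any of the transcripts of the 10 genes under 12. Over all genes, 3 passed as reported. The count was 61 with DESeq2 (22 higher and 39 lower in *Orco* mutants), 12 with limma-voom, 5 with no filter, 91 with library quality weights, 1 without the 3 libraries with the fewest detected genes, a setting chosen after the data were seen, and 1 to 3 when leaving out 1 library. It was 1 without wild-type 2, wild-type 4 or *Orco* mutants 2, 3 or 4. The samples were isolated independently, and libraries with the same replicate number did not deviate together (r -0.094 to 0.027), so the numbers do not pair them. The fit with the replicate number as a block also left out *Orco* mutant 5, which has no wild-type library of its number. It called 4 genes and gave *futsch* a log2 fold change of -0.61 and the 10 genes a median of 0.078. Leaving out *Orco* mutant 5 without the block gave 3 genes, -0.49 and 0.065. The log2 fold change of *futsch* was also negative with limma-voom (-0.52), with quality weights (-0.92) and without the 3 libraries with the fewest genes (-0.66). That of *Syx1A* was -0.087 with quality weights and -0.093 without those 3 libraries. Leaving out 1 library in turn gave ranges of -0.10 to 0.77 for *elav*, -1.16 to 0.062 for *Syt1*, -0.62 to 0.53 for *cpx*, -0.49 to 0.63 for *futsch* and 1.07 to 1.68 for *CadN*. The unadjusted p of *CadN* was under 0.05 in 8 of 18 alternatives (0.0126 to 0.197), that of *Appl* in 3 (lowest adjusted p 0.112 from limma with quality weights) and that of *cpx* in 1. The median log2 fold change of the 10 genes ran from 0.07 without *Orco* mutant 5 to 0.70 without wild-type 2. The median over all genes shifted to 0.15 with quality weights and with no filter.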
